A study of Homo sapiens with 6 samples.

Results

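Inflammatory chemokines and cytokines of the interleukin-6 (IL-6) family were followed in U251MG cells, an established human glioblastoma line, with and without CRISPR-Cas9 targeting of NUAK2. The set held 10 genes, taken by symbol from the 28395 genes of the count table: the neutrophil-attracting chemokines CXCL1, CXCL2, CXCL3 and CXCL8, the chemokines CXCL12 and CCL2, the IL-6 family cytokines IL6, IL11 and LIF, and IL1B. Of these, 8 had enough reads to be tested, IL1B was at or under 3 counts in every library, and CXCL1 had no read in any library.

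Chemokines are small secreted proteins that draw cells along a gradient by engaging G protein-coupled receptors. The CXC chemokines CXCL1, CXCL2, CXCL3 and CXCL8 attract neutrophils through CXCR1 and CXCR2, CXCL12 acts through CXCR4, and CCL2 recruits monocytes and macrophages through CCR2 and is a well known product of glioma cells. The IL-6 family cytokines signal through receptor complexes that contain the shared chain gp130, encoded by IL6ST, to JAK kinases and the transcription factor STAT3, and the transcription factor NF-κB drives many of these ligand genes in inflammation.

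Bulk RNA-sequencing covered 3 libraries of WT U251MG cells and 3 libraries of NUAK2-CR cells, all of the same line and with no treatment named in the labels. In NUAK2-CR cells, NUAK2, a kinase of the AMPK-related family, had been targeted with guides delivered by GFP and mCherry lentiviral vectors, and doubly fluorescent cells were sorted and grown as clones. Which clone was sequenced is not in the labels, and the labels name no control vector or control guide for the WT cells. An effect of the targeting therefore cannot be told apart from a property of the clone or an effect of the vectors and the sorting. Nothing in the labels says that the libraries came from separate cultures, so p-values measure only the spread between these libraries. WT libraries held 35310946 to 55574081 counts and NUAK2-CR libraries 29648445 to 33776712. NUAK2 itself fell to 52.6% of WT, at a log2 fold change of -0.93 with a standard error (SE) of 0.11 (adjusted p = 1.8e-05). Adjusted p-values are from edgeR's quasi-likelihood F test unless another tool is named. The glial markers GFAP, S100B, VIM, NES, SOX2 and CD44 were detected in every library, and all 6 were lower in NUAK2-CR, with log2 fold changes from -2.60 for S100B (-3.28 without NUAK2-CR replicate 3) to -0.49 for VIM. Among the 10 leukocyte and microglia markers, TYROBP, AIF1, CX3CR1, CD3E and MS4A1 had no read, PTPRC and ITGAM did not exceed 3 counts in any library, and the normalized counts of all 10 summed to 227 to 260 in WT and 42 to 52 in NUAK2-CR. Most of that sum was CSF1R, which fell from 222 to 40.2 normalized counts. The 4 endothelial markers summed to 34 to 56 normalized counts in WT and 88 to 108 in NUAK2-CR, and did not all move together. VWF rose from 17.5 to 58.5 normalized counts (log2 fold change 1.69, adjusted p = 0.00135). PECAM1 rose from 2, 0 and 0 counts to 12, 14 and 14 (4.53, adjusted p = 0.000549). With so few WT counts the size for PECAM1 was uncertain, at 6.85 without WT replicate 1 and 2.81 with a prior count of 2. CDH5 (0.85, adjusted p = 0.261) and TEK (-1.03, adjusted p = 0.22) did not pass. The part of these marker shifts in the results that follow was not tested, and in bulk RNA a change in the cells that carry a transcript and a change of RNA per cell cannot be told apart.

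The comparison of NUAK2-CR with WT asks which transcripts differ once NUAK2 has been targeted. In NUAK2-CR cells CCL2 rose to 333% of its WT level, LIF rose to 139%, and IL11 fell to 15.3%, whereas CXCL12 stayed within a narrow interval around no change and IL6 and the neutrophil-attracting chemokines had at most 47 counts in any library. Thus 2 of the 8 tested members were called higher and 1 was called lower at an adjusted p-value under 0.05. Over all 14873 genes tested the same rule called 26.3% higher and 28.2% lower, so in neither direction was the share of members called above that of the whole table. With the additional requirement of an absolute log2 fold change over 2, the DEG rule of the study, no member was higher and only IL11 was lower, against 1.89% and 2.83% of all tested genes in these directions. For 4 of the 8 members, CCL2, LIF, IL11 and IL6, the libraries of WT and NUAK2-CR had no overlap in value, against 61.4% of all tested genes. The median log2 fold change was 0.36 over the 8 members and -0.01 over all genes tested.

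**Figure D1:**
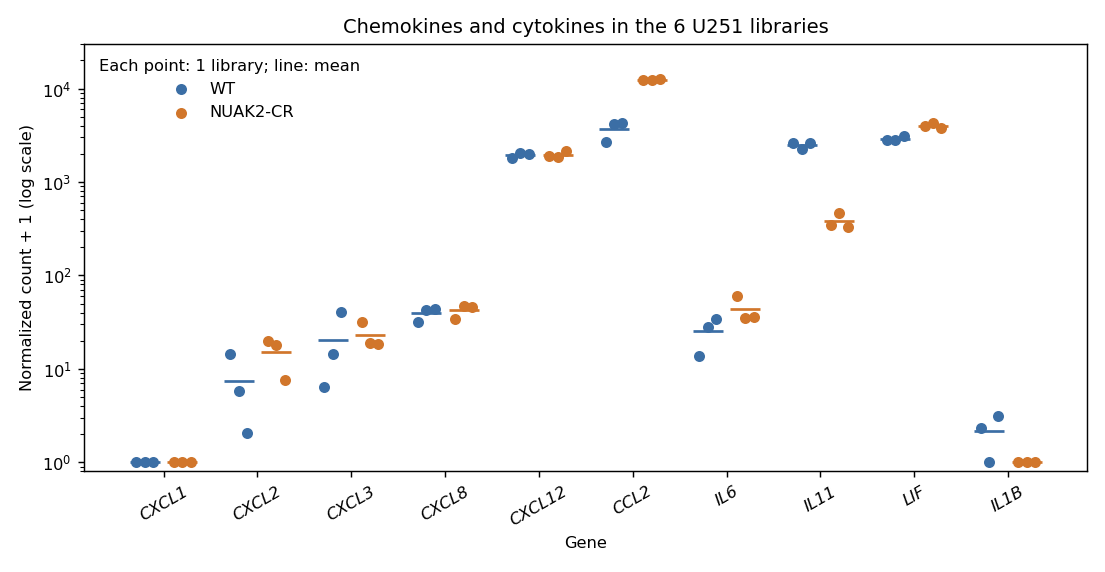
Normalized counts plus 1 on a log scale for the 10 members, with 1 point for each library, WT in blue and NUAK2-CR in orange, and a line at each group's mean. CCL2, CXCL12, IL11 and LIF lie above 300 normalized counts in every library, CXCL2, CXCL3, CXCL8 and IL6 lie below 60, and only CCL2, IL11, LIF and IL6 have groups that do not overlap.

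CCL2, the monocyte-attracting ligand of CCR2, was the most abundant member per kb of transcript in every library. The gene lies on the plus strand of chromosome 17 (chr17:34255285-34257203, GRCh38.p14) and has 3 exons. The WT libraries, in replicate order, had 2648, 4212 and 4306 normalized counts and the NUAK2-CR libraries 12408, 12237 and 12532, a normalized count being a count put on the scale of a library of average effective size. Every NUAK2-CR library stood far above every WT library, and the WT libraries differed more among themselves, WT replicate 1 being the lowest, than the NUAK2-CR libraries did. The means were 3722 ± 931 (SD, n = 3) and 12393 ± 148 (SD, n = 3). The log2 fold change was 1.74 with an SE of 0.14 (95% interval 1.42 to 2.05, adjusted p = 7.91e-07), under the DEG threshold of 2. It lay between 1.55 and 1.85 in the alternative analyses, the lowest being the value without WT replicate 1. CCL7, a related monocyte chemokine of the same gene cluster on chromosome 17, had 0, 2 and 2 counts in the WT libraries against 6, 6 and 8 in the NUAK2-CR libraries, too few to be tested, and is named after its values were seen. Of the cluster's other genes, CCL11, CCL13 and CCL1 had no read in any library, and CCL8 had 2 counts in WT replicate 3 only. The 20 tested genes nearest to CCL2 had a median log2 fold change of -0.32, so CCL2 moved against the median of its neighbourhood. Of these 20 genes, 2 were called higher and 9 lower, against 26.3% and 28.2% of all tested genes.

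The 4 neutrophil-attracting chemokines share a cluster on chromosome 4, in the order CXCL8 (chr4:73740569-73743716), CXCL1 (chr4:73869393-73871308), CXCL3 (chr4:74036589-74038689) and CXCL2 (chr4:74097040-74099195), and none of them passed the test. CXCL8, also called interleukin-8, had 46, 43 and 40 counts in the 3 WT libraries and 26, 38 and 41 counts in the 3 NUAK2-CR libraries. After scaling these were 38.3 ± 6.79 and 41.3 ± 7.17 normalized counts (SD, n = 3), and the groups overlapped. Its log2 fold change was 0.12 with a 95% interval from -0.55 to 0.79 (adjusted p = 0.767). CXCL3 had 8, 14 and 37 counts in WT against 24, 15 and 16 in NUAK2-CR, so that the NUAK2-CR libraries fell within the WT range. Its log2 fold change was 0.24 with an interval from -1.10 to 1.58 (adjusted p = 0.768), and its direction was not settled, being -0.26 without WT replicate 1 and 1.27 without WT replicate 3. CXCL2 had 20, 5 and 1 counts in WT against 15, 14 and 6 in NUAK2-CR, with WT replicate 1 the highest raw count of all. Its log2 fold change was 0.98 with an interval from -0.52 to 2.49 (adjusted p = 0.252), and without WT replicate 1 it was 2.17 (adjusted p = 0.0411), the only setting in which an uncalled member was called. The intervals of CXCL2 and CXCL3 were the widest of the set, and differences within them were not detectable at this depth. CXCL1 was at 0 counts in all 6 libraries, which allows up to 3 counts in each, or 1.99 to 3.81 normalized counts, by counting error only. That floor takes each count as a separate fragment and would be higher if both mates of a read pair were counted. The cluster's other chemokine genes, CXCL5, CXCL6, PPBP, PF4 and PF4V1, had 0 to 2 counts in every library. The transcripts of CXCL1, CXCL2 and CXCL3 are close copies. Of their 50-base windows, 5.33%, 10.1% and 5.26%, respectively, were found exactly in another member of the trio. Their counts are therefore uncertain where a read did not tell them apart. No window of 100 bases, the sequenced read length before trimming, was shared.

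NF-κB is a known activator of these genes, and their promoters are shown because the genes with its motif stayed low in both lines. RefSeq promoters on GRCh38.p14, from 250 bases before to 50 bases after the annotated start, matched 8 of the 10 members, and not CCL2 or LIF. Each window here runs from position -150 to position -21 on the gene's own strand, 5′ to 3′, and capitals mark matches to a κB motif (GGANTTTCC), an AP-1 motif (TGANTCA) or a TATA motif (TATAAA), which were searched on both strands and overlap nowhere. The windows are chr4:73869243-73869372 on the plus strand for CXCL1, chr4:74099216-74099345 on the minus strand for CXCL2, chr4:74038710-74038839 on the minus strand for CXCL3, chr4:73740419-73740548 on the plus strand for CXCL8 and chr7:22727050-22727179 on the plus strand for IL6.
CXCL1: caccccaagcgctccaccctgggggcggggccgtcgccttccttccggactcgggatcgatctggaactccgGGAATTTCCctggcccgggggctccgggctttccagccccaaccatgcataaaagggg
CXCL2: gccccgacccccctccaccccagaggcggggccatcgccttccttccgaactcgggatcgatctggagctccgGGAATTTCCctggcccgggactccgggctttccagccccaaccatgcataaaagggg
CXCL3: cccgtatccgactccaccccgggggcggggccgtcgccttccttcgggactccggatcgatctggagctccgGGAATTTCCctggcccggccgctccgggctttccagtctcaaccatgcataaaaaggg
CXCL8: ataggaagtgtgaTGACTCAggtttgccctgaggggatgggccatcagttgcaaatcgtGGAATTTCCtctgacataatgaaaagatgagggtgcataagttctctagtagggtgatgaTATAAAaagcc
IL6: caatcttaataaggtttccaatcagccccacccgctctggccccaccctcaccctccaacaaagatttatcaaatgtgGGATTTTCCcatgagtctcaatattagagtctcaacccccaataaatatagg
The κB match began at -78 in CXCL1, -77 in CXCL2, -78 in CXCL3, -91 in CXCL8 and -72 in IL6. It was found in 5 of the 8 member promoters and in 1.64% of all 35116 promoters of the same length. The matched letters were GGAATTTCC in the 4 chemokines and GGATTTTCC in IL6. CXCL8 also held an AP-1 match at -137 and a TATA match at -31. No member promoter held a CRE (TGACGTCA), found in 1.85% of all promoters, or the TEAD letters CATTCC, found in 14.0%. Of the 3 members called, IL11 alone had a promoter to search, so whether a κB match goes with a call cannot be read from this set, and a match describes letters and not binding.

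CXCL12, the CXCR4 ligand better known for homeostatic than for inflammatory roles, was abundant and level. The gene lies on the minus strand of chromosome 10 (chr10:44370165-44385097). In replicate order it had 1788, 2025 and 2010 normalized counts in WT against 1878, 1856 and 2141 in NUAK2-CR. The groups overlapped, with means of 1941 ± 133 and 1958 ± 158 (SD, n = 3). The log2 fold change was 0.01 with an SE of 0.08 (adjusted p = 0.896), and the 95% interval from -0.16 to 0.19 leaves out changes as large as that of LIF. The sign is not fixed, since the value ranged from -0.05 to 0.06 over the alternatives.

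**Figure D2:**
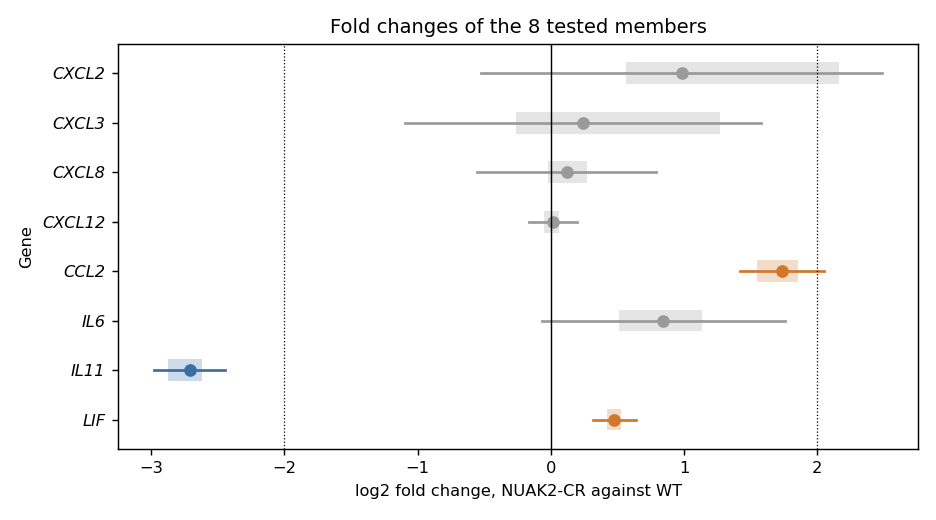
Log2 fold change of NUAK2-CR against WT for the 8 tested members, with points for the estimate and lines for the 95% interval. Shaded boxes give the range over the fits with each library left out in turn, and the other alternative analyses are not drawn. Dotted lines mark an absolute log2 fold change of 2, orange marks members called higher, blue marks the member called lower and grey those not called, and IL11 is the only member whose whole interval lies beyond a dotted line.

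IL11, a gp130 cytokine known for roles in stromal fibrosis and platelet formation, showed the largest difference of the set. It lies on the minus strand of chromosome 19 (chr19:55364382-55370463). In replicate order it had 2596, 2246 and 2599 normalized counts in WT against 345, 461 and 330 in NUAK2-CR. The lowest WT library was well above the highest NUAK2-CR library. The means were 2480 ± 203 and 379 ± 71.3 (SD, n = 3). The log2 fold change was -2.71 with an SE of 0.12 (95% interval -2.98 to -2.45, adjusted p = 3.57e-09), and it lay between -2.88 and -2.62 over the alternatives. The 20 tested genes nearest to IL11 had a median log2 fold change of 0.22. Of these, 8 were called higher and 4 lower, against 26.3% and 28.2% of all tested genes. The IL11 promoter window, chr19:55370484-55370613 on the minus strand, is shown because IL11 is the member that changed most, with the AP-1 match in capitals.
IL11: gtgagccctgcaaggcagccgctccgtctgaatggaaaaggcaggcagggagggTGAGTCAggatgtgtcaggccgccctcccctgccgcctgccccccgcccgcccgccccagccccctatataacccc
The match, TGAGTCA at -96, was 1 of 2 AP-1 matches among the 8 member promoters, the other being that of CXCL8, against 7.71% of all promoters. The IL11 promoter held no match to the κB, CRE or TEAD letters or to the exact letters TATAAA, although the window holds tatataa near its end.

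LIF, the gp130 cytokine that maintains stem cell self-renewal in culture, rose modestly. It lies on the minus strand of chromosome 22 (chr22:30240453-30246759). In replicate order it had 2779, 2797 and 3088 normalized counts in WT against 3952, 4297 and 3793 in NUAK2-CR. All NUAK2-CR libraries were above all WT libraries, with means of 2888 ± 174 and 4014 ± 258 (SD, n = 3). The log2 fold change was 0.48 with an SE of 0.07 (95% interval 0.31 to 0.64, adjusted p = 0.000161), and it lay between 0.42 and 0.52 over the alternatives. Its 20 nearest tested genes had a median of -0.10, with 6 called higher and 7 lower, against 26.3% and 28.2% of all tested genes. Antisense transcripts LIF-AS1 and LIF-AS2 overlap LIF by 86 and 555 bases, and because the reads were counted with default parameters, which in featureCounts do not use strand, reads from either strand cannot be told apart.

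IL6, the founding cytokine of the family, was read at a low level in every library. It lies on the plus strand of chromosome 7 (chr7:22727200-22731998). Its raw counts were 19, 28 and 31 in WT against 47, 28 and 32 in NUAK2-CR, which after scaling were 12.6 to 33.3 normalized counts in WT and 33.8 to 59.7 in NUAK2-CR. The groups did not overlap, but the highest WT library and the lowest NUAK2-CR library were nearly equal. The log2 fold change was 0.85 with an SE of 0.42 (95% interval -0.07 to 1.76), and the test did not pass (adjusted p = 0.108, and from 0.0699 to 0.361 over the alternatives). STEAP1B, on the opposite strand, overlaps IL6 by 1730 bases and had 88 counts in all 6 libraries together, and the antisense transcript IL6-AS1, which was not in the count table, overlaps it by 1737 bases, so the IL6 counts are uncertain because strand was not used. IL1B, the ligand of the IL-1 receptor (chr2:112829751-112836779), had 2, 0 and 2 counts in the WT libraries and none in NUAK2-CR. Both groups were at or under the floor of 3 counts in each library, so no fold is given.

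Scaled by library size and by kilobases of canonical transcript (CPM per kb), the set divided into a well expressed and a barely expressed tier. In WT the levels were 134 ± 33.5 CPM per kb for CCL2, 27.8 ± 2.28 for IL11, 26.8 ± 1.83 for CXCL12 and 19.9 ± 1.20 for LIF (SD, n = 3). IL11 and CXCL12 overlapped over the WT libraries and so had no settled order, whereas CCL2 was above and LIF below both of them in every library. The lower tier held CXCL8 at 0.62, IL6 at 0.58, CXCL3 at 0.48 and CXCL2 at 0.15 CPM per kb, with overlapping ranges between neighbours in that order. In NUAK2-CR the levels were 446 ± 5.32 CPM per kb for CCL2, 27.6 ± 1.77 for LIF, 27.1 ± 2.19 for CXCL12 and 4.25 ± 0.80 for IL11. LIF and CXCL12 were indistinguishable, and IL11 had moved below both. In the lower tier IL6 stood at 1.01, CXCL8 at 0.67, CXCL3 at 0.55 and CXCL2 at 0.34 CPM per kb.

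The make-up of the set shifted with these changes. CCL2 held 56.2% to 67.1% of the summed CPM per kb of the 10 members in the WT libraries and 87.5% to 88.1% in the NUAK2-CR libraries. IL11 held 11.2% to 17.2% in WT and 0.72% to 1.03% in NUAK2-CR. CXCL12, whose own level was steady, went from between 11.8% and 14.6% to between 5.1% and 5.78% because a share falls when another member rises. The ratio of CCL2 to IL11 counts, which does not depend on depth or scaling, was 1.02, 1.88 and 1.66 in the WT libraries against 35.9, 26.6 and 37.9 in the NUAK2-CR libraries. Within the gp130 ligands, LIF and IL11 were read almost equally often in WT, at 1.07 to 1.25 LIF counts for each IL11 count, and LIF prevailed in NUAK2-CR at 9.33 to 11.5. These ratios restate the fold changes of their members within each library and carry no separate test.

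**Figure D3:**
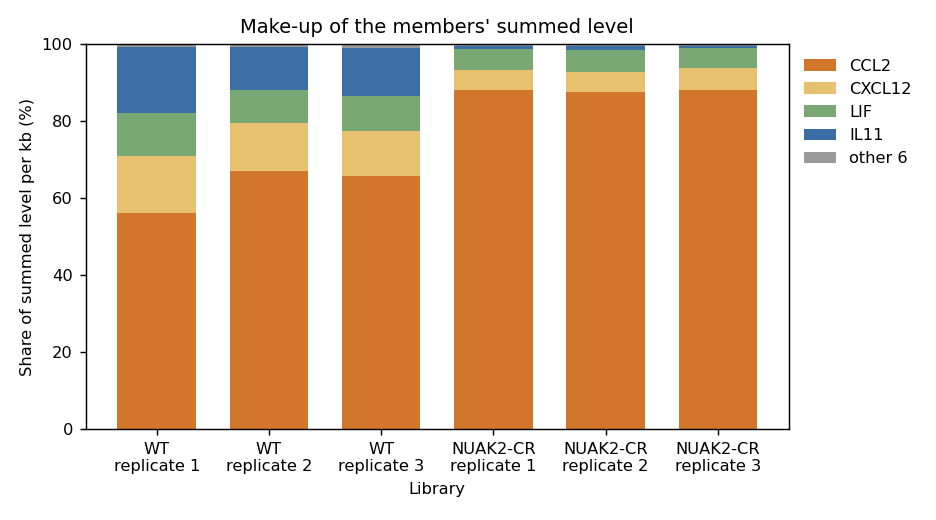
Stacked bars of the share of each member in the summed CPM per kb of all 10 members, in percent, for each of the 6 libraries, with CXCL1, CXCL2, CXCL3, CXCL8, IL6 and IL1B drawn together as the other 6. CCL2 takes 87.5% to 88.1% of the bar in the NUAK2-CR libraries, and the IL11 segment shrinks from at least 11.2% in WT to at most 1.03%.

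The receptors of these chemokines changed in NUAK2-CR in both directions. Of the 7 receptors listed, 3 were tested, and 2 were higher and 1 was lower. Over all tested genes 26.3% were called higher and 28.2% lower. ACKR1, a decoy receptor that binds CCL2 and inflammatory CXC chemokines without G protein signalling, rose from 65.1, 115 and 105 normalized counts in the WT libraries to 1145, 1002 and 1166 in the NUAK2-CR libraries, with no overlap. Its log2 fold change was 3.57 with an SE of 0.17 (adjusted p = 7.2e-09). For the receptors of CXCL12, CXCR4 rose from 63.9 ± 6.91 to 122 ± 8.69 normalized counts (SD, n = 3), with a log2 fold change of 0.94, and the scavenging receptor ACKR3 fell from 349 ± 49.6 to 46.0 ± 9.82, a log2 fold change of -2.93. CXCL12 was thus level while both of its receptors were called, in opposite directions. The signalling receptors of the other chemokines were hardly read, CXCR1 being at 0 counts in every library, CXCR2 having 1 count in 1 library and CCR2 having at most 4 counts. ACKR2, another decoy, had 14, 13 and 30 counts in WT against 4, 5 and 8 in NUAK2-CR and was under the filter. It was called lower without WT replicate 1, which gave 2 receptors lower, and was not called in the other alternatives that tested it.

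The receptor chains for IL-6 family cytokines and IL-1 were mostly well expressed. Of 9 listed, 7 were tested, of which 4 were higher, 1 was lower and 2 were not called, with a median log2 fold change of 0.29. The shares over all tested genes were 26.3% higher and 28.2% lower. OSMR, the oncostatin M receptor chain, rose from 5142 ± 621 to 7242 ± 624 normalized counts (SD, n = 3), and IL1RAP, the accessory chain of the IL-1 receptor, rose from 1628 ± 235 to 2416 ± 120. LIFR, the chain that binds LIF, had a log2 fold change of 0.27 (adjusted p = 0.0244), a call that was lost without WT replicate 3 (adjusted p = 0.0784) and without replicate 1 (0.0805) or 3 (0.0769) of NUAK2-CR. IL1R1, the signalling receptor for IL-1, had a log2 fold change of 0.78, and IL6R, the IL-6 binding chain, had -1.28, falling from 431 ± 5.69 to 177 ± 15.9 normalized counts. Both were named after their values were seen. The shared chain IL6ST had 6572 ± 1055 and 7573 ± 664 normalized counts and did not pass the test (log2 fold change 0.21, adjusted p = 0.128). IL11RA, which binds IL11, stayed between 17.4 and 33.3 normalized counts in all libraries and did not pass either (adjusted p = 0.562).

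Among other ligands the tested genes that passed were lower in NUAK2-CR, and in either list edgeR called 0 higher (also 0 at an unadjusted p under 0.05 and 0 with DESeq2). Each list held only 4 tested genes, and 26.3% of all tested genes were called higher and 28.2% lower. Of 38 further chemokines listed, 22 had no read in any library, 31 were at or under 3 counts in every library, and 4 were tested. CXCL14, a chemokine with no settled receptor, was the most abundant of these, and its normalized counts fell from 9046, 14313 and 13619 in the WT libraries to 6656, 7805 and 7839 in the NUAK2-CR libraries. The groups did not overlap and the log2 fold change was -0.73 (adjusted p = 0.000788). CX3CL1, a membrane-bound chemokine, fell from 1085 ± 117 to 469 ± 31.5 (SD, n = 3), with a log2 fold change of -1.21. CXCL16 and CCL26 did not pass the test. Of 18 further IL-6 and IL-1 family ligands, 4 were tested and 3 were lower. EBI3, the subunit shared by interleukins 27 and 35, fell from 51.1 ± 10.3 to 6.06 ± 3.57 normalized counts, a log2 fold change of -3.07. IL18, an IL-1 family cytokine, had a log2 fold change of -0.68. CLCF1, a gp130 ligand, was level at -0.01 (adjusted p = 0.952). With no filter beyond 1 count, or with DESeq2, 5 of these ligands were called lower.

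**Figure D4:**
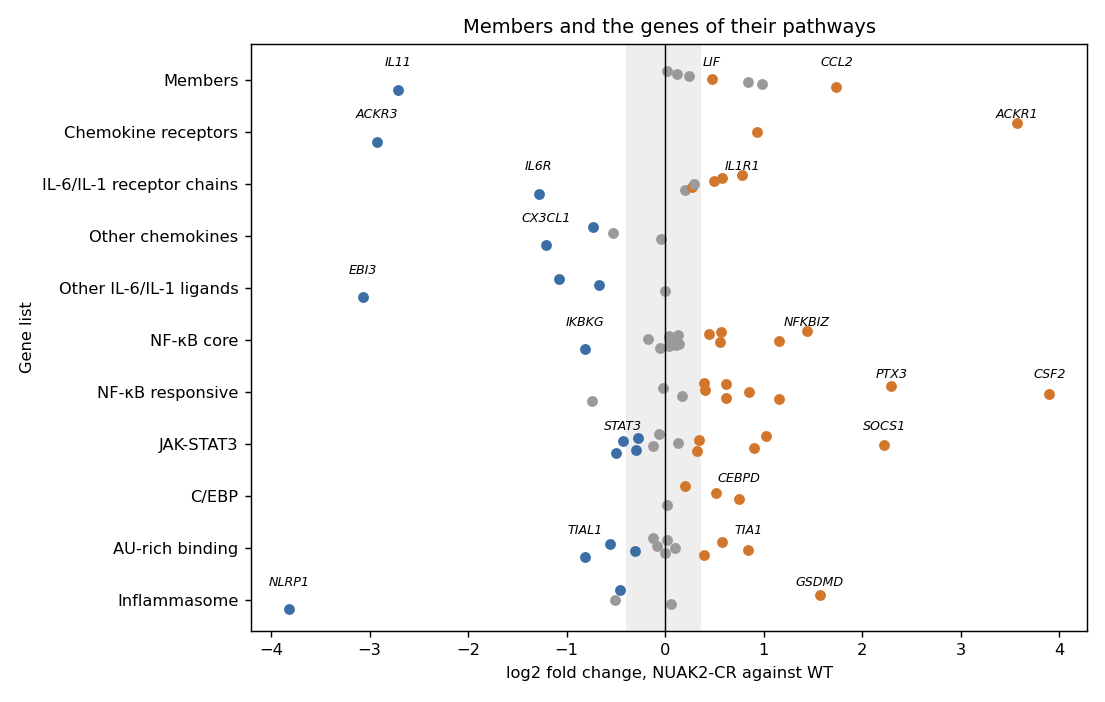
Log2 fold change of NUAK2-CR against WT for the tested genes of the member set and of 10 related gene lists, with 1 point for each gene, orange for called higher, blue for called lower and grey for not called. Points are offset vertically only to separate them, and the shaded band holds the middle of all tested genes, from -0.39 to 0.35, within which 3 of the members and many pathway genes lie.

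The main canonical NF-κB subunits RELA and NFKB1 did not pass the test, and other genes of their list were called in both directions. Of 14 subunits, inhibitors and kinases, all tested, 5 were higher and 1 was lower, with a median log2 fold change of 0.12. Among all tested genes 26.3% were called higher and 28.2% lower. NFKBIZ, an atypical nuclear inhibitor family protein that is needed for some IL-6 family and chemokine genes, rose from 257 ± 28.8 to 698 ± 129 normalized counts (SD, n = 3), with a log2 fold change of 1.44. NFKB2 and RELB, subunits of the alternative pathway, had log2 fold changes of 0.56 and 1.15, TNFAIP3, a feedback inhibitor, had 0.57 and REL had 0.44. IKBKG, the regulatory subunit of the kinase complex, fell from 1419 ± 101 to 809 ± 83.8, a log2 fold change of -0.81, and without WT replicate 2 the inhibitor gene NFKBIB joined it as lower, giving 2. RELA (0.13, adjusted p = 0.117), NFKB1 (0.11, adjusted p = 0.226) and NFKBIA (0.04, adjusted p = 0.761) did not pass. RELB, TNFAIP3, REL, RELA, NFKB1, NFKBIA and NFKBIB were named after their values were seen.

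Of 12 other genes known to respond to NF-κB, 11 were tested, 8 were higher and 0 lower in edgeR's test (also 0 at an unadjusted p under 0.05 and 0 with DESeq2), with a median log2 fold change of 0.62. The shares over all tested genes were 26.3% higher and 28.2% lower. CSF2, the cytokine GM-CSF, rose from 8, 2 and 2 counts in the WT libraries to 41, 40 and 51 in the NUAK2-CR libraries, a log2 fold change of 3.90 with an SE of 0.46 (adjusted p = 1.52e-05). With so few WT counts its size was uncertain, at 4.59 without WT replicate 1 and 3.34 with a prior count of 2. PTX3, a secreted pattern recognition protein, rose from 173 ± 8.29 to 845 ± 94.2 (SD, n = 3), with a log2 fold change of 2.29. SOD2, the mitochondrial superoxide dismutase, and IRF1, an interferon regulatory factor, had log2 fold changes of 0.62 and 0.39. Without WT replicate 1 the adhesion molecule gene ICAM1, not called otherwise (-0.74, adjusted p = 0.102) and named after its values were seen, passed as lower. CXCL8, IL6, CXCL2 and CXCL3, with a κB match, did not pass in the same libraries, nor did PTGS2, another inflammatory gene in the list (log2 fold change -0.03, adjusted p = 0.968).

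Genes of the JAK-STAT3 pathway, which carries the signal of IL-6, IL-11 and LIF, moved both ways, as did the genes of the whole table. All 12 were tested, of which 5 were higher and 4 lower, with a median log2 fold change of 0.04. Of all tested genes, 26.3% were called higher and 28.2% lower. SOCS1, a suppressor of cytokine signalling, rose from 60.7 ± 4.81 to 284 ± 8.87 normalized counts (SD, n = 3), with a log2 fold change of 2.22 (adjusted p = 3.41e-07). PTPN11, a phosphatase recruited to gp130, had a log2 fold change of 0.34. PIM1, CISH and BCL6, genes that STAT factors induce or that act in their feedback, had 1.03, 0.90 and 0.32. STAT3 itself fell from 12695 ± 531 to 9410 ± 318 (SD, n = 3), with a log2 fold change of -0.43, and JAK1 (-0.30), PIAS3 (-0.50) and SOCS3 (-0.28), the main feedback inhibitor of gp130, were also lower. PIM1, CISH, BCL6, PIAS3 and SOCS3 were named after their values were seen.

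The C/EBP factors bind IL-6 and acute-phase promoters, and 3 of the 4 tested were higher and 0 lower in edgeR's test (also 0 at an unadjusted p under 0.05 and 0 with DESeq2), with a median log2 fold change of 0.36. Among all tested genes 26.3% were called higher and 28.2% lower. CEBPB rose from 1390 ± 72.3 to 1995 ± 149 normalized counts (SD, n = 3), with a log2 fold change of 0.52, and CEBPD had 0.75. CEBPG had 0.20 (adjusted p = 0.0402), and its call was lost with no filter beyond 1 count (adjusted p = 0.0529, leaving 2 factors higher), without replicate 1 (adjusted p = 0.0639) or 2 (0.0687) of WT and without replicate 1 (0.0776) or 3 (0.188) of NUAK2-CR. CEBPA was level at 0.02 (adjusted p = 0.937).

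Many cytokine mRNAs are short-lived because proteins bind AU-rich elements in their 3′UTR. The pentamer ATTTA occurred in the annotated 3′UTR of all 10 members, from 2.19 per kb in LIF to 14.1 per kb in IL6, and in 73.5% of the 13190 tested genes with an annotated 3′UTR, at 2.29 per kb. The longer TTATTTATT occurred in 7 members against 9.83% of those genes. IL11, which fell, had 6 copies, LIF, which rose, had 2, and CCL2, which rose most, had none, as did CXCL12 and IL6. CXCL2 had 5 copies, CXCL1 had 3, IL1B had 2, and CXCL3 and CXCL8 had 1 each, so carriers of the element were found among members that rose, fell or were barely read. Of 11 AU-rich element and cytokine mRNA decay factors, all tested, 3 were higher and 3 lower, with a median log2 fold change of 0.00. Over all tested genes 26.3% were called higher and 28.2% lower. ZFP36L1, which promotes decay, rose from 10059 ± 379 to 14972 ± 774 normalized counts (SD, n = 3), with a log2 fold change of 0.57. TIA1, a translational silencer, rose from 2695 ± 325 to 4835 ± 160, a log2 fold change of 0.84, while its relative TIAL1 fell from 4014 ± 156 to 2290 ± 106, a log2 fold change of -0.81. ELAVL1, the stabilising protein HuR, had -0.31. ZFP36, also a decay factor, had 0.40, and ZC3H12A, the endonuclease Regnase-1 that degrades IL6 mRNA, had -0.56. TIAL1, ZFP36 and ZC3H12A were named to complete these counts.

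Pro-IL-1β, the IL1B product, is processed by inflammasomes, and parts of that machinery were not detected. Of 9 genes listed, 5 were tested, of which 1 was higher and 2 lower, with a median log2 fold change of -0.46, and PYCARD and CASP5 had no read in any library. The shares called over all tested genes were 26.3% higher and 28.2% lower. NLRP1, an inflammasome sensor, fell from 137, 111 and 107 normalized counts in the WT libraries to 12.7, 2.41 and 9.88 in the NUAK2-CR libraries, a log2 fold change of -3.82 (adjusted p = 4.64e-06). CASP4 had -0.46, and CASP1, the protease that cleaves pro-IL-1β, did not pass (0.06, adjusted p = 0.72). GSDMD, the pore-forming gasdermin D, was called higher at 1.57 (adjusted p = 0.027), but its normalized counts were 51.8, 37.6 and 47.3 in WT and 68.6, 293 and 47.2 in NUAK2-CR. The high value was NUAK2-CR replicate 2 alone, and without it the log2 fold change was 0.33 (adjusted p = 0.428). The call was also lost without WT replicate 2 (adjusted p = 0.075) or WT replicate 3 (0.0639) and with DESeq2 (0.0995), each of which left no gene of this list higher.

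Over all 10 related lists, 75 of 135 genes were tested, 31 were higher and 17 lower, with a median log2 fold change of 0.11. Of all 14873 genes tested, 26.3% were called higher and 28.2% lower. Among all tested genes, the 5 whose centred log2 CPM profile over the 6 libraries lay nearest to that of CCL2 were PRR16, RCN3, LDAF1, ANOS1 and OLFML2B, at distances of 0.19, 0.20, 0.20, 0.23 and 0.24. Their log2 fold changes were 1.93, 1.82, 1.77, 1.77 and 1.79, close to the 1.74 of CCL2. The 6 libraries fall into the same WT and NUAK2-CR groups for each of them. Both traits follow from choosing these 5 genes by closeness over the same 6 libraries. No listed chemokine or cytokine was among them. Around the other members, the 20 tested genes nearest to each gene of the chromosome 4 cluster had a median log2 fold change of 0.23. Those near CXCL12 had 0.41, those near IL6 0.25 and those near IL1B 0.10. Called higher and lower were 10 or 11 and 2 near the cluster genes, and 11 and 1 near CXCL12. Near IL6 they were 11 and 3, and near IL1B 6 and 4, against the same shares of 26.3% and 28.2%.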

How the data were processed

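Bulk RNA-sequencing of 6 U251MG libraries, 3 WT and 3 NUAK2-CR, was analysed from the gene count table, with groups and replicate numbers taken from the sample labels. Libraries came from TRIzol RNA with a stranded mRNA kit, and reads were paired-end. The authors demultiplexed with bcl2fastq, trimmed with Trimmomatic, aligned to hg38 with HISAT2, counted with featureCounts at its default parameters, which do not use strand, and deposited raw counts per NCBI gene ID. Tool versions and the annotation are not given in the sources used here. Of 28395 IDs, 27745 were matched to a symbol.

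Counts were filtered with filterByExpr, which removed 13522 genes, scaled with TMM and tested in edgeR 4.0.16 (R 4.3.3) by the quasi-likelihood F test, and p-values were adjusted by Benjamini-Hochberg over 14873 genes. Calls had an adjusted p-value under 0.05, and DEGs also an absolute log2 fold change over 2. The prior count was 0.125. Intervals of 95% used edgeR's total degrees of freedom. The common biological coefficient of variation was 10.1%. The floor was 3 counts per library and covers counting error only. It takes each count as a separate fragment. Whether both mates of a read pair were counted is not stated in the sources used here, and if so the floor is too low. The fit was tested on simulated data. Alternatives were DESeq2 1.42.0, RLE and library-size scaling, a filter of 1 count in all or of 10 counts in every library, each library left out, a replicate block, a prior count of 2 and other fold thresholds.

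Gene coordinates and promoters came from RefSeq on GRCh38.p14. Gene strands and overlaps came from GENCODE release 44, and transcript lengths and 3′UTRs from its canonical transcripts. Motifs were searched on both strands of each 300-base promoter. Figures were drawn with matplotlib 3.10.9 in Python 3.11.15, from tables made with pandas 2.3.3.

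The members and gene lists were chosen with earlier results of these data known. Named genes were all members, NUAK2, every DEG and the 3 called genes with the highest mean in each list, chemokine neighbours of the chromosome 4 cluster and the 5 genes nearest to CCL2 in profile. Others are named where a count of 5 or fewer fell outside that rule, after their values were seen. The values of 1 gene counted in a list are not reported here.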

Additional observations from a re-analysis of the deposited data

How the results depend on the processing

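CCL2, LIF and IL11 kept their direction and call under all 13 alternatives, with log2 fold changes of 1.55 to 1.85, 0.42 to 0.52 and -2.88 to -2.62. CXCL12, CXCL3, CXCL8 and IL6 were not called under any, and CXCL2 was called without WT replicate 1. CXCL2 and CXCL3 were not tested with at least 10 counts in every library. With the replicate block the members called stayed at 2 higher and 1 lower, and CCL2, IL11 and LIF had log2 fold changes of 1.77, -2.72 and 0.47. The block changed no call of a list. Same-numbered libraries did not deviate together (Pearson's r across genes 0.057, -0.076 and 0.087 for numbers 1, 2 and 3), so they were taken to share only a number. Over the named genes, 592 values kept their call or lack of one, 12 lost it (LIFR, CEBPG and GSDMD) and 1 gained it.

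Leaving out each library in turn gave 1 to 2 chemokine receptors lower, 1 to 2 NF-κB core genes lower, 0 to 1 NF-κB responsive genes lower and 0 to 1 inflammasome genes higher. Inflammasome genes higher were 0 with DESeq2, and those lower were 1 with at least 10 counts in every library, which removed NLRP1. Other IL-6 and IL-1 family ligands lower were 5 with DESeq2 and with no filter beyond 1 count, which added CTF1 and IL36B. C/EBP factors higher were 2 with no filter beyond 1 count.

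The fold threshold lowered many counts by construction. With an absolute log2 fold change over 2 and over 1, members higher were 0 and 1, chemokine receptors higher 1 and 1, cytokine receptor chains higher 0 and 0, NF-κB core higher 0 and 2 and lower 0 and 0, NF-κB responsive higher 2 and 3, JAK-STAT3 higher 1 and 2 and lower 0 and 0, C/EBP higher 0 and 0, AU-rich factors higher 0 and 0 and lower 0 and 0, other chemokines lower 0 and 1, and inflammasome lower 1 and 1. Over 2, cytokine receptor chains lower were 0, other IL-6 and IL-1 family ligands lower 1 and inflammasome higher 0.

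Depth limits CXCL2, CXCL3, CXCL8 and IL6, which had at most 47 counts in any library, and leaves CXCL1 and IL1B without a test.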
